A study of Homo sapiens with 12 samples.

Results

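The response to knockdown of KMT9α was measured in 5637 cells, an established human bladder carcinoma line, by RNA sequencing of total RNA. In 3 libraries the cells had received a control siRNA (siCtrl), and in 3 they had received an siRNA against KMT9α (siKMT9α#1). The labels call this treatment siRNA only, and its name and target are taken from the study's text, so the sequence results below rest on that name. All 6 libraries were collected at day 3 after transfection from the same wild-type line with no further treatment, and they are 6 of the 12 libraries of the series. Every gene of the line was described, without a preselected set: the table held 23064 gene symbols, of which 14335 had enough counts to be tested. The contrast rests on 1 line and on 1 siRNA against KMT9α, so that loss of KMT9α and any other action of this siRNA cannot be told apart within it. The labels do not say whether the 3 libraries of a group came from separate cultures, so the p-values measure the spread between these libraries, which may be technical.

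KMT9 is a methyltransferase made of KMT9α, the catalytic subunit encoded by N6AMT1, and KMT9β, encoded by TRMT112, and it monomethylates a lysine of histone H4. TRMT112 also partners several methyltransferases that modify transfer RNA and ribosomal RNA, and the same N6AMT1-TRMT112 pair methylates the translation release factor encoded by ETF1. An siRNA lowers its target through a guide strand that pairs with the messenger RNA along its whole length, and guide strands are also known to lower other transcripts that match only their seed, bases 2 to 8 of the guide.

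Values are CPM (counts relative to the TMM-scaled total of the library) of the transcript with most counts for each gene, and changes are log2 fold changes of siKMT9α#1 against siCtrl, printed in brackets after a gene. Where a pair of levels is given as 1 value to another, these are the means of the 3 siCtrl and the 3 siKMT9α#1 libraries. A gene was called a differentially expressed gene (DEG), and is said to have risen or fallen, at an edgeR quasi-likelihood p below 1e-06.

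siKMT9α#1 was designed against a stretch of the N6AMT1 coding sequence in exon 3, at chr21:30254500-30254524 on the minus strand (GRCh37, the build called hg19 in the labels), which is shown because its last bases recur in the 3′ UTRs described further on. Capitals mark the heptamer that pairs with the guide seed.
N6AMT1 target: acgctgtaacaaagttcACATTCAa
N6AMT1 transcripts were counted at 13.4, 13.2 and 13.3 CPM with siCtrl and 3.75, 2.22 and 2.56 CPM with siKMT9α#1. All 3 siKMT9α#1 libraries lay below all 3 siCtrl libraries (log2 fold change -2.23, standard error 0.12), so the gene named as the target was lower in the siRNA libraries. An exact permutation test over 3 against 3 libraries cannot give a 2-sided p below 0.1, so calls rest on the fit across all genes. TRMT112 was counted at 179.8, 199 and 194 CPM with siCtrl and 204, 220.2 and 215 CPM with siKMT9α#1, a difference (0.16) that did not pass the threshold, and it shares 284 bases with ESRRA. Beyond KMT9, the TRMT112 partners TRMT11 (23.2 to 32.4 CPM, 0.48) and THUMPD3 (219.8 to 297 CPM, 0.43), which form transfer RNA methyltransferases, rose, and so did ETF1 (177 to 228 CPM, 0.36). The partners METTL5 (-0.07), BUD23 (0.16), ALKBH8 (0.43) and THUMPD2 (0.43) did not pass. THUMPD3 lies within an antisense gene, THUMPD3-AS1, and the counting is described only as HOMER at default settings, with no strand stated, so reads of such pairs cannot be told apart here or for the overlapping genes named below.

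Library totals ran from 30737917 to 35151256.5 counts with siCtrl and from 27078216.5 to 31174144.5 with siKMT9α#1, and the first principal component, with 84.0% of the variance, separated the siRNAs. All 6 epithelial markers were present, with a summed level of 7385 to 7735 CPM with siCtrl and 4826 to 5062 CPM with siKMT9α#1. Of 7 luminal urothelial markers 3 reached 1 CPM, and UPK1A, UPK3A and KRT20 were close to 0. Of 6 leukocyte markers CD3E was at 0 in every library, and the summed level was 3.53 to 3.96 CPM with siCtrl and 4.96 to 5.40 CPM with siKMT9α#1. Fibroblast markers (6 genes, 3 of them at 1 CPM or more) summed to 59.98 to 66.5 CPM with siCtrl and 28.5 to 32.7 CPM with siKMT9α#1, with DCN and LUM near 0, and endothelial markers (5 genes, none at 1 CPM) to 2.63 to 3.22 and 0.812 to 1.25 CPM. Most of the fibroblast sum was THY1, with a mean of 42.8 CPM over the 6 libraries. Smooth muscle markers (5 genes, 2 at 1 CPM or more, with DES, ACTG2 and CNN1 near 0) summed to 35.9 to 36.2 CPM with siCtrl and 60.9 to 64.0 CPM with siKMT9α#1. Most of this sum was SMTN, at 32.3, 32.6 and 32.0 CPM with siCtrl and 57.0, 59.7 and 55.6 CPM with siKMT9α#1. The part of these markers in the results below was not tested, and in bulk RNA fewer cells of a type and less RNA per cell cannot be told apart.

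After knockdown of KMT9α, 5104 genes were DEGs (35.6% of those tested), of which 2581 were upregulated (18.0%) and 2523 downregulated (17.6%). The counts were balanced, but the sizes were not. Among the upregulated genes the median log2 fold change was 0.50 and 272 (1.90% of genes tested) changed at least 2-fold, while among the downregulated genes the median was -0.72 and 789 (5.50%) changed at least 2-fold. At least 4-fold, 18 genes rose and 160 fell. In every DEG the 3 siCtrl libraries were separate from the 3 siKMT9α#1 libraries, as they were in 72.4% of all genes tested. At an adjusted p below 0.05, which asks less of a gene, 5029 genes were higher and 5109 lower. Of 270 DEGs named in the text, 11 lost the call in at least 1 of the 6 fits that each left out 1 library, all with direction kept and adjusted p at most 6.47e-05 by edgeR: E2F1, FHL1, FOS, FOXA1, HEY1, MARS, MCM7, MX2, PSAP, PSAT1 and SRF. FOS, MCM7 and FOXA1 lost it without siKMT9α#1 library 2, and FOS was then at -1.33.

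Direction varied with abundance. In the fifth of genes with the lowest levels, up to 4.05 CPM, 1.43% were upregulated and 7.01% downregulated, and in the fifth with the highest levels, from 84.4 CPM, 34.6% were upregulated and 18.8% downregulated. Relative to the TMM-scaled library total, the upregulated genes together went from 28.6% with siCtrl to 39.8% with siKMT9α#1, and the downregulated genes from 23.2% to 14.9%. These are not exact shares of all counts, since the TMM factors were 1.01 to 1.03 with siCtrl and 0.978 to 0.986 with siKMT9α#1. Levels are relative to a total, so the 2 sets are not independent of each other. Noncoding transcripts leaned upward, with 129 of 1246 up (10.4%) and 62 down (4.98%), whereas the 13089 genes with coding transcripts split evenly, at 18.7% up and 18.8% down.

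**Figure D1:**
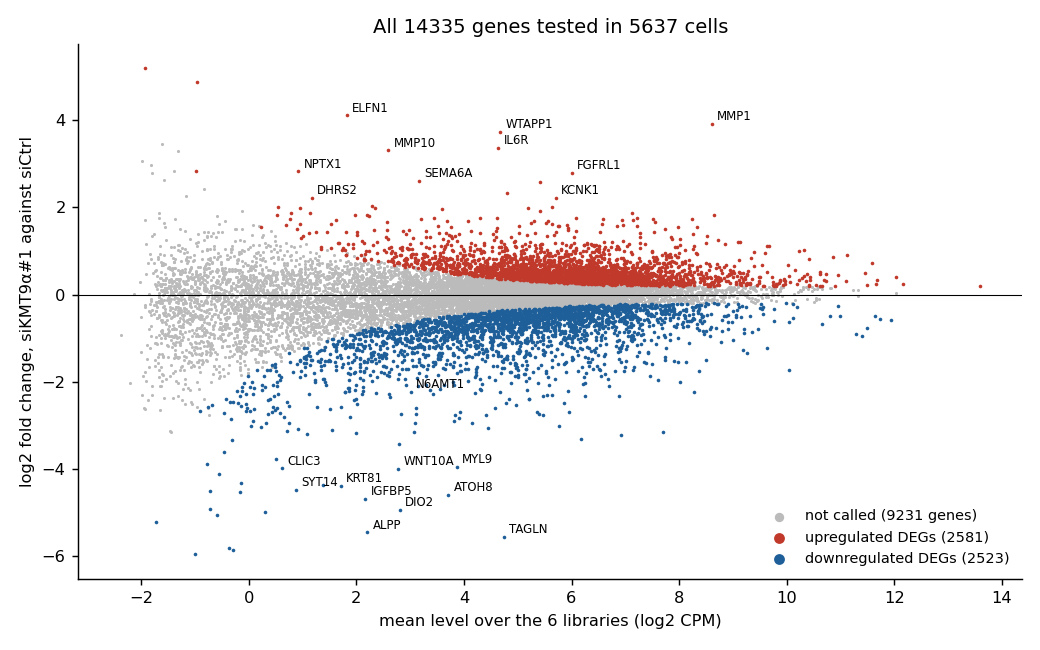
Each point is 1 of the 14335 genes tested, with its mean level over the 6 libraries (log2 CPM) on the horizontal axis and its log2 fold change, siKMT9α#1 against siCtrl, on the vertical axis. The 2581 upregulated DEGs crowd near the axis at high levels, while the 2523 downregulated DEGs reach further, down to TAGLN at -5.55 among genes with a mean count of at least 50.

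Among genes with a mean count of at least 50, the largest falls joined contractile, secreted and keratin genes. TAGLN (transgelin, an actin-binding protein of contractile cells, chr11:117070086-117078180) was counted at 50.9, 55.4 and 50.7 CPM with siCtrl and 0.674, 1.03 and 1.58 CPM with siKMT9α#1 (log2 fold change -5.55, standard error 0.11, adjusted p = 8.19e-26). ALPP, an alkaline phosphatase of placenta (chr2:233243434-233247599), was counted at 8.40, 9.47 and 9.06 CPM with siCtrl and 0.150, 0.258 and 0.197 CPM with siKMT9α#1 (log2 fold change -5.45, standard error 0.20, adjusted p = 1.14e-19). Each gene went from a clear level to nearly nothing in all 3 siKMT9α#1 libraries. TAGLN overlaps PCSK7 (-0.11) on the opposite strand, and ALPP shares near-identical sequence with other alkaline phosphatase genes, so its reads may be split among them. DIO2, the deiodinase that activates thyroid hormone, was counted at 14.6, 13.0 and 13.0 CPM with siCtrl and 0.450, 0.480 and 0.394 CPM with siKMT9α#1 (-4.93). IGFBP5, which binds insulin-like growth factors outside the cell, was counted at 8.22, 9.57 and 8.16 CPM with siCtrl and 0.337, 0.185 and 0.460 CPM with siKMT9α#1 (-4.68). Neither gene kept a level above 0.5 CPM after knockdown. ATOH8, a basic helix-loop-helix transcription factor, was counted at 24.8, 24.2 and 26.3 CPM with siCtrl and 1.27, 0.960 and 0.919 CPM with siKMT9α#1 (-4.58). WNT10A, a Wnt ligand of epithelia, was counted at 11.7, 13.1 and 13.7 CPM with siCtrl and 0.637, 0.923 and 0.853 CPM with siKMT9α#1 (-3.99). MYL9, a regulatory light chain of smooth muscle and nonmuscle myosin, was counted at 26.9, 28.2 and 27.2 CPM with siCtrl and 1.91, 1.48 and 1.90 CPM with siKMT9α#1 (-3.95). In these 3 genes, too, the groups were far apart. The other large falls were SYT14, a synaptotagmin (3.53 to 0.155 CPM, -4.48), KRT81, a hair keratin that overlaps KRT86 and resembles it (6.24 to 0.291 CPM, -4.38), UBD, the ubiquitin-like protein FAT10 that overlaps GABBR1 (4.96 to 0.236 CPM, -4.37), CLIC3, an intracellular chloride channel protein (2.88 to 0.180 CPM, -3.98), and FAM171B (12.6 to 1.17 CPM, -3.42).

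The largest rises included a pair of neighboring matrix metalloproteinases, a cytokine receptor and a general transcription factor. MMP1, the interstitial collagenase (chr11:102660132-102668891), was counted at 50.8, 48.5 and 45.3 CPM with siCtrl and 674, 774 and 739.8 CPM with siKMT9α#1 (log2 fold change 3.92, standard error 0.047, adjusted p = 4.88e-31). MMP10, stromelysin-2 (chr11:102641233-102651359), was counted at 1.20, 1.12 and 1.01 CPM with siCtrl and 10.1, 12.2 and 10.6 CPM with siKMT9α#1 (3.30). The pseudogene WTAPP1 (chr11:102617699-102707497) was counted at 3.62, 3.66 and 3.45 CPM with siCtrl and 43.5, 51.3 and 47.2 CPM with siKMT9α#1 (3.73). All 3 genes lie together on chromosome 11, and WTAPP1 runs on the opposite strand across both proteases. Its span shares 8760 bases with that of MMP1 and 10127 with that of MMP10, so its rise may not be a separate measurement. The spans of MMP1 and MMP10 do not overlap each other. IL6R, the receptor chain that binds interleukin-6, was counted at 4.57, 4.88 and 3.84 CPM with siCtrl and 44.7, 44.3 and 46.8 CPM with siKMT9α#1 (log2 fold change 3.36, standard error 0.076, adjusted p = 8.22e-25). FGFRL1, a receptor for fibroblast growth factors that lacks a kinase domain, was counted at 16.6, 15.9 and 16.1 CPM with siCtrl and 112, 112 and 112 CPM with siKMT9α#1 (2.79). GTF3A, the factor that starts transcription of 5S ribosomal RNA genes, was counted at 12.2, 11.9 and 12.6 CPM with siCtrl and 71.4, 75.8 and 73.3 CPM with siKMT9α#1 (2.59). GTF3A shares 181 bases with MTIF3. The replicate libraries of these genes were close together in both groups. ELFN1 (chr7:1705381-1787582), a synaptic adhesion protein, was counted at 0.613, 0.353 and 0.196 CPM with siCtrl and 5.995, 6.76 and 7.22 CPM with siKMT9α#1 (4.11), and its siCtrl values rest on few counts. The list was completed by NPTX1, a neuronal pentraxin (0.462 to 3.31 CPM, 2.83), SEMA6A, a membrane semaphorin (2.52 to 15.4 CPM, 2.60), GPAT3, an acyltransferase of triglyceride synthesis (9.22 to 46.2 CPM, 2.33), KCNK1, a potassium channel (18.4 to 85.9 CPM, 2.22), and DHRS2, a mitochondrial reductase (0.801 to 3.69 CPM, 2.21).

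Genes were next grouped by whether their 3′ UTR held ACATTCA, the heptamer complementary to the seed of the siKMT9α#1 guide. Of the 13099 tested genes with a known 3′ UTR, 15.4% held it in the longest annotated 3′ UTR. The heptamer stood in 31.9% of the downregulated DEGs, in 42.4% of those that fell at least 2-fold, and in 7.85% of the upregulated DEGs. The change deepened with the number of copies. The median log2 fold change was 0.028 in the 11086 genes without a copy, -0.26 in the 1627 genes with 1 copy, -0.47 in the 307 with 2 copies and -0.63 in the 79 with 3 or more. The share downregulated went with it, at 15.1%, 36.6%, 47.2% and 57.0%, and the share upregulated at 20.6%, 10.9%, 4.89% and 2.53%. Among genes with 1 copy, the 389 in which an A followed the heptamer had a median of -0.41 and 42.7% downregulated, against -0.23 and 34.7% in the 1238 in which another base followed. Genes with a copy have longer 3′ UTRs on average, and in genes with 3′ UTRs of middle length the median with 1 or more copies was -0.39.

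Genes with the heptamer of the control siRNA lay on the other side of 0. ACGCAAA, the heptamer complementary to the seed of the siCtrl guide, stood in 273 genes (2.08%), of which 112 rose (41.0%) and 33 fell (12.1%), and their median was 0.26. It stood in 16.1% of the DEGs that rose at least 2-fold. The 213 genes with the siCtrl heptamer alone had a median of 0.35, the 1953 with the siKMT9α#1 heptamer alone -0.32, and the 60 with both 0.051. Among the 10873 genes with neither heptamer, 20.2% were upregulated and 15.3% downregulated. Of the 4949 DEGs with a known 3′ UTR, 3852 (77.8%) held neither heptamer: 2193 upregulated (88.3%) and 1659 downregulated (67.3%). The heptamers of the passenger strands, TACAGCG for siKMT9α#1 and GGACTTT for siCtrl, had medians of 0.055 and -0.019. ACATTCA and ACGCAAA are related to the siRNAs through sequence alone, and whether they account for the change of any gene was not tested. The copies are given beside the genes below, and an ACATTCA gene is one with 1 or more copies in its longest 3′ UTR. Of the 24 genes with the largest changes, DIO2 and SYT14 hold 2 copies and IGFBP5 holds 1, and WTAPP1 has no known 3′ UTR.

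The windows below are 3′ UTR stretches of 23 bases (GRCh37, written 5′ to 3′ on the strand of the gene, heptamer in capitals) from the DEGs with a mean of at least 10 CPM that held ACATTCA and fell most. They were chosen after their values were seen.
TMEM30A, chr6:75964924-75964946, minus strand: gatatttaACATTCAgaaaatta
CXCL6, chr4:74704366-74704388, plus strand: catgtatcACATTCActatatta
RBBP9 site 1, chr20:18470265-18470287, minus strand: aagtttcaACATTCAatctaagt
RBBP9 site 2, chr20:18469805-18469827, minus strand: agcaatatACATTCAtaatatac
DESI2 site 1, chr1:244869100-244869122, plus strand: aaagtcacACATTCAgaactgtc
DESI2 site 2, chr1:244869978-244870000, plus strand: gtgagttgACATTCAgctgcttt
DESI2 site 3, chr1:244871895-244871917, plus strand: gtagaaacACATTCActgcttca
TMEM30A, a subunit of lipid flippases, was counted at 132, 127 and 134 CPM with siCtrl and 13.0, 12.9 and 13.5 CPM with siKMT9α#1 (-3.31). CXCL6, a chemokine for neutrophils, was counted at 221, 205 and 227 CPM with siCtrl and 23.6, 24.3 and 22.8 CPM with siKMT9α#1 (-3.21). The serine hydrolase RBBP9, with 2 copies, went from 39.1 to 4.67 CPM (-3.06), and DESI2, with 3 copies, from 96.3 to 11.9 CPM (-3.01). For siCtrl, the DEGs with ACGCAAA that rose most were the following.
SOX2, chr3:181431288-181431310, plus strand: ccacactcACGCAAAaaccgcga
GORASP2, chr2:171822691-171822713, plus strand: gtctggaaACGCAAActatcatt
PLEKHB2, chr2:131907351-131907373, plus strand: tcctacatACGCAAAttgtacat
SOX2, a transcription factor of stem and squamous cells, was counted at 4.63, 5.75 and 4.46 CPM with siCtrl and 20.4, 19.3 and 17.8 CPM with siKMT9α#1 (1.96). GORASP2, a Golgi stacking protein, was counted at 43.0, 46.2 and 44.2 CPM with siCtrl and 145, 152 and 148 CPM with siKMT9α#1 (1.74). PLEKHB2, a membrane trafficking protein, was counted at 59.5, 56.0 and 55.5 CPM with siCtrl and 189, 179.7 and 191 CPM with siKMT9α#1 (1.71).

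**Figure D2:**
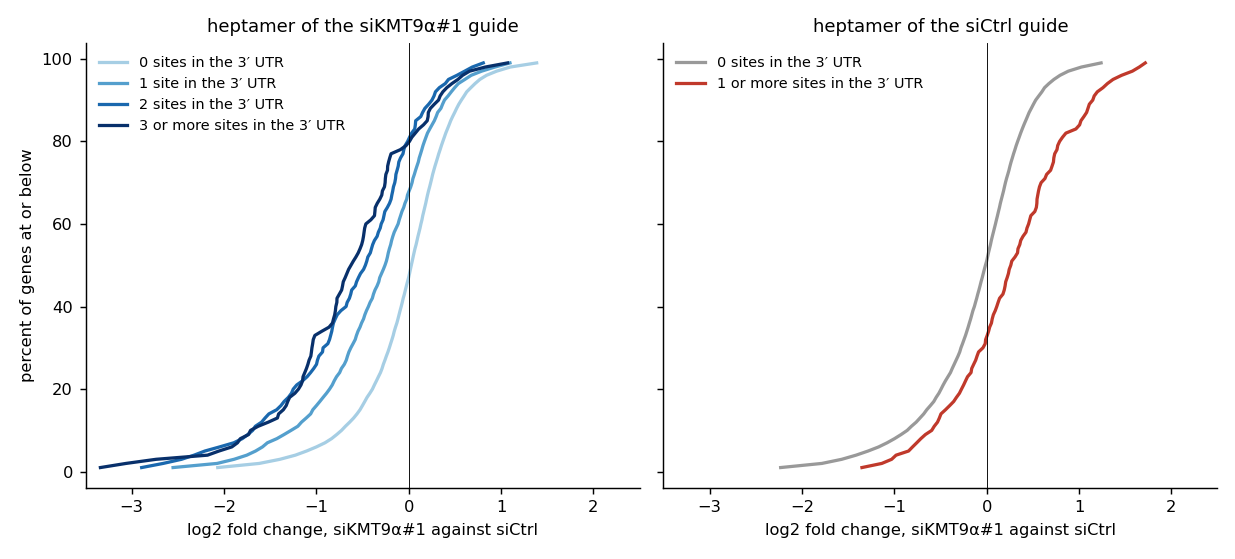
Cumulative curves give the percent of genes (vertical axis) at or below each log2 fold change (horizontal axis), by copies of the guide heptamer in the longest 3′ UTR, left for siKMT9α#1 and right for siCtrl. On the left the curves move down in fold change from 0 copies (median 0.028) to 3 or more copies (median -0.63), and on the right genes with the siCtrl heptamer lie higher (median 0.26).

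Genes of the actin cytoskeleton had one of the highest shares of falls among the lists, 53.5% of 43 genes tested (the plot of DEG shares by list sets this beside the others). Serum response factor (SRF) and its actin-sensing cofactors drive genes for actin, tropomyosins and contractile proteins. Of 26 SRF targets tested, 20 fell, 6 of them at least 2-fold, and 3 rose, with a median log2 fold change of -0.60. TPM1, a tropomyosin that carries ACATTCA, was counted at 499.6, 520.5 and 506 CPM with siCtrl and 109, 107 and 110.4 CPM with siKMT9α#1 (-2.22). MYLK, the kinase that switches on myosin light chains, was counted at 61.1, 61.7 and 63.0 CPM with siCtrl and 12.7, 10.9 and 11.7 CPM with siKMT9α#1 (-2.40), and it overlaps its antisense gene MYLK-AS1 (-1.12). ACTB and ACTG1, the cytoplasmic actins, are among the most abundant messenger RNAs of a cell. ACTB was counted at 4547, 4666 and 4807 CPM with siCtrl and 3083, 3153 and 3165 CPM with siKMT9α#1 (-0.58), and ACTG1 at 4004, 4080.2 and 4094 CPM with siCtrl and 2737, 2724 and 2796 CPM with siKMT9α#1 (-0.56). The falls also took in the focal adhesion proteins ZYX (-0.73) and VCL (-0.52), the crosslinkers FLNA (-0.63), FLNC (-0.84) and ACTN1 (-0.49), and the smooth muscle actin ACTA2 (-1.37). Of the 20 targets that fell, 2 held ACATTCA. Among the targets that rose were CNN2 (0.48) and FHL1 (0.39). SRF itself (0.26) rose slightly, its cofactor MRTFB (42.4 to 21.7 CPM, -0.96), an ACATTCA gene, fell, and MRTFA was at -0.29 without passing. Among actin regulators 6 of 14 rose, ROCK1 (0.44) most, and ARPC5 (-1.54), which carries 2 copies of ACATTCA, and RHOB (-0.74) fell. Over the whole list 10 genes rose and 23 fell. The rises were 6 with scaling by total counts or upper quartile, or without siCtrl library 3 or siKMT9α#1 library 3. They were 4 with counts summed over transcripts, and the falls were 22 to 25 in all these fits. Without the genes that hold either guide heptamer, the list had a median of -0.36 over 37 genes.

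SRF binds the CArG box, 10 bases that begin with CC, end with GG and hold only A or T between. Promoters were those of RefSeq (GRCh38.p14, 250 bases before to 50 after the start, 11228 of 14335 tested genes matched). The box stood in 1.08% of all genes, 1.01% of upregulated DEGs, 1.48% of downregulated DEGs and 6 of the 22 SRF targets with a promoter. The 121 genes with the box had a median log2 fold change of 0.019, against -0.0073 in those without it. Of the 17 SRF targets with a promoter that fell, 5 held the box. The windows are printed 5′ to 3′ on the strand of the gene, with the box in capitals, to show where it lies.
MYLK, chr3:123620625-123620650, minus strand: aaaccatcCCTTTTATGGgagttgaa
FHL2, chr2:105438597-105438622, minus strand: tctggagaCCTTAAAAGGcacgtggg
TPM4, chr19:16067357-16067382, plus strand: tcctaggtCCAAATAAGGcgagggct
FLNA, chrX:154374711-154374736, minus strand: caattttaCCAATTAAGGctttctcg
ACTG1, chr17:81512876-81512901, minus strand: aaagatcgCCATATATGGacatgttc
CNN2, chr19:1026511-1026536, plus strand: cctccaggCCTTATAAGGacatttgc
The first 5 genes fell (-2.40, -0.78, -0.79, -0.63 and -0.56), and CNN2 rose (0.48). FHL2 and CNN2 hold ACATTCA. A match of these letters is a description of the window and not a measured site.

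**Figure D3:**
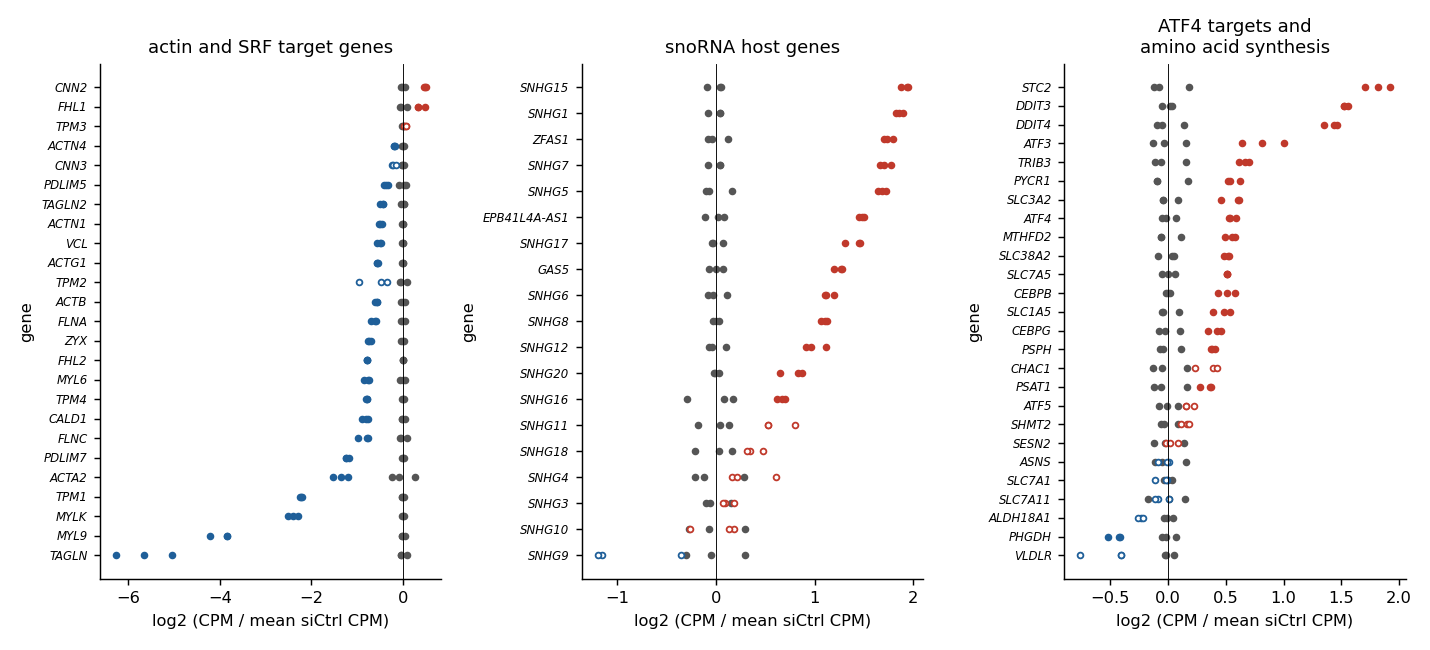
Each row is a gene and each point a library, placed at log2 of its CPM over the mean siCtrl CPM, grey for siCtrl, colored for siKMT9α#1 and open where the gene was not called. One actin and SRF target is not drawn. Of 26 actin and SRF targets 20 fell, of 19 snoRNA hosts 13 rose, and of 26 ATF4 targets and amino acid synthesis genes 16 rose.

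Matrix genes fell with them. Of 24 tested matricellular and glycoprotein genes (of 34 listed), 13 fell and 2 rose (median -0.47, and -0.47 in the 21 genes without either guide heptamer). CCN1, a matricellular signal protein, was counted at 534, 585 and 483 CPM with siCtrl and 165, 187 and 215 CPM with siKMT9α#1 (-1.497). FN1, fibronectin, was counted at 2338, 2492 and 2306 CPM with siCtrl and 1733, 1614 and 1718 CPM with siKMT9α#1 (-0.49). Both groups of libraries were well apart for each. Of elastic fiber components in the list, ELN (11.8 to 3.11 CPM, -1.93), FBN1 (52.7 to 18.2 CPM, -1.53) and EFEMP2 (5.84 to 1.33 CPM, -2.13) fell and FBN2, a second fibrillin, rose (0.35), as did the matricellular TNC (0.43). Of 26 collagen genes tested, 10 fell (6 at least 2-fold) and 4 rose, and 3 of 6 fibrillar chains fell. COL17A1, the transmembrane collagen of hemidesmosomes, rose, from 358 to 552 CPM (0.62). Of 17 enzymes that fold or crosslink collagen, 9 fell, among them the lysyl oxidases LOXL1 (13.8 to 3.69 CPM, -1.91) and LOXL4 (50.5 to 14.1 CPM, -1.85) and the collagen galactosyltransferase COLGALT1 (355 to 124 CPM, -1.52), an ACATTCA gene. P4HB, a subunit of prolyl hydroxylase and a protein disulfide isomerase, was counted at 511, 525 and 522 CPM with siCtrl and 1094, 1116 and 1142 CPM with siKMT9α#1 (1.10), the one rise of at least 2-fold in this list, and it holds the siCtrl heptamer. Laminins, the base of epithelial basement membranes, showed 4 rises and 1 fall of 10, and the fall was lost without siCtrl library 1 or siKMT9α#1 library 2 or 3. Among 18 integrins 6 fell and 3 rose. The summed fibroblast markers moved the same way as the matrix genes (59.98 to 66.5 CPM with siCtrl, 28.5 to 32.7 CPM with siKMT9α#1), with DCN and LUM near 0. Most of this sum was 1 gene, THY1, at 58.1, 54.5 and 60.99 CPM with siCtrl and 25.6, 27.7 and 29.97 CPM with siKMT9α#1. PDGFRA, PDGFRB and FAP did not exceed 3.31 CPM in any library. The sum thus mainly reports THY1, and the part of these markers in the falls of matrix genes was not tested.

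Proteases and their inhibitors moved in both directions. Of 14 matrix metalloproteinases tested, 3 rose and 4 fell. Opposite to MMP1 and MMP10, MMP7 (matrilysin) was counted at 14.9, 15.9 and 14.3 CPM with siCtrl and 2.10, 1.55 and 2.17 CPM with siKMT9α#1 (-2.95). MMP2 (-0.76), MMP14 (-0.62) and MMP28 (-0.86) fell, and MMP15 (0.75) rose. The inhibitors TIMP3 (283 to 145 CPM, -0.96) and RECK (20.7 to 9.93 CPM, -1.06), both ACATTCA genes, fell, and TIMP2 rose (0.52). In plasminogen activation 3 of 7 genes rose and 1 fell, and the urokinase PLAU was counted at 991, 986 and 993 CPM with siCtrl and 1718, 1758 and 1751 CPM with siKMT9α#1 (0.82). Its inhibitors SERPINE2 (1.44) and SERPINB2 (1.19) rose. PLAU overlaps the gene C10orf55 (0.81) on the opposite strand.

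Urothelial and squamous genes changed unevenly. Keratins as a family had 9 falls and 3 rises of 21 genes tested (median -0.71). KRT7, a keratin of simple and urothelial epithelium, was counted at 3465, 3525 and 3645 CPM with siCtrl and 1718, 1852 and 1903 CPM with siKMT9α#1 (-0.96). It shares 2887 bases with KRT86 (-0.92) on the same strand. KRT17, a keratin of basal and activated epithelium, was counted at 1566, 1674 and 1621 CPM with siCtrl and 492, 484 and 498 CPM with siKMT9α#1 (-1.72). KRT15, a keratin of basal cells, went the other way, at 7.36, 6.94 and 7.69 CPM with siCtrl and 19.3, 19.8 and 18.1 CPM with siKMT9α#1 (1.38). Of 17 urothelial and luminal genes 8 fell and 3 rose. The uroplakins, plaque proteins of umbrella cells, included UPK3B (303 to 129 CPM, -1.23) and UPK1B (5.72 to 1.22 CPM, -2.24), which fell. Among luminal transcription factors GATA3 (-0.84), PPARG (-0.55) and ELF3 (-0.38) fell, the first a regulator of urothelial identity, while KLF5 (0.93), RXRA (0.73) and FOXA1 (0.59) rose. GATA3 and PPARG hold ACATTCA, and RXRA holds the siCtrl heptamer. Of 37 basal and squamous genes 15 rose and 8 fell. SPRR genes, which encode cornified envelope precursors, gave 3 rises of 5, with SPRR1B at 0.920, 1.35 and 0.589 CPM with siCtrl and 2.85, 3.73 and 3.81 CPM with siKMT9α#1 (1.88), whereas involucrin (IVL), a precursor of the same envelope, fell from 6.54 to 1.22 CPM (-2.42). Of 10 keratins among the basal and squamous genes 3 rose and 4 fell. Of their 4 transcription factors 2 rose, the basal TP63 (0.36) among them, and 2 fell. Summed, the 6 basal urothelial markers were at 3651 to 3883 CPM with siCtrl and 2534 to 2567 CPM with siKMT9α#1, although TP63 and KRT6A among them were higher.

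Genes of the epithelial-mesenchymal transition moved little as a set, with 3 rises and 4 falls of 22 (median -0.104, and 0.015 in the genes without ACATTCA). E-cadherin (CDH1) was counted at 321, 333 and 328 CPM with siCtrl and 230.2, 219 and 228 CPM with siKMT9α#1 (-0.54). Vimentin (VIM), a mesenchymal intermediate filament, was counted at 352, 362 and 365 CPM with siCtrl and 566, 585 and 565 CPM with siKMT9α#1 (0.67). Of the other mesenchymal genes tested FN1 (-0.49) and CDH2 (-0.43) fell and 3 did not pass, the lowest at -1.86. At an adjusted p below 0.05 by edgeR, 5 of the 6 mesenchymal genes were lower. Of 10 factors in the list 2 rose and none fell, and changes that did not pass ran up to 2.79. None of the transcription factors SNAI2 (0.049), TWIST1 (0.015) and ZEB2 (-0.15) passed, and SNAI1, another such factor, did not exceed 1.18 CPM in any library. The splicing regulators ESRP1 (0.51) and ESRP2 (0.52) rose. Desmosome genes gave 5 rises and 1 fall of 10, with DSG3, a desmosomal cadherin of basal cells, from 35.5 to 60.2 CPM (0.76), and tight junction genes 3 rises and 6 falls of 19, with cingulin (CGN), an ACATTCA gene, from 54.2 to 15.4 CPM (-1.82).

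In the TGF-β and BMP pathway, whose ligands signal through paired receptors to SMAD factors, 16 of 47 genes fell and 12 rose. Among the ligands, TGFB2 was counted at 185, 177 and 178 CPM with siCtrl and 76.7, 77.8 and 75.04 CPM with siKMT9α#1 (-1.24). INHBB (-2.71), BMP4 (-1.02) and BMP1 (-0.59) fell, the last pair with ACATTCA, and INHBA (0.77), GDF11 (0.72) and BMP2 (0.54) rose. The receptors TGFBR1 (51.0 to 19.2 CPM, -1.41) and BMPR1A (25.9 to 7.95 CPM, -1.70) fell, both with ACATTCA, and ACVR1B rose (0.74). Targets and matrix carriers showed 6 falls of 10. ID3, an inhibitor of helix-loop-helix factors induced by BMP, was counted at 90.8, 96.0 and 94.2 CPM with siCtrl and 34.8, 38.1 and 31.8 CPM with siKMT9α#1 (-1.43). The family member ID1 did not pass (0.11), ID2 (-1.38) fell, and the latent TGF-β carriers LTBP2 (-1.18) and LTBP3 (-1.20) fell.

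Of 11 Wnt ligands tested 2 rose and 2 fell (18.2% each), close to the shares over all genes. The falls were WNT10A and WNT4 (-1.33), the latter with ACATTCA, and the rises WNT7A (1.20) and WNT9A (2.03). WNT7A was counted at 323, 328 and 337 CPM with siCtrl and 740.0, 768 and 766 CPM with siKMT9α#1, the reverse of WNT10A in direction. Of 46 Wnt genes 12 rose and 7 fell, with 5 rises among 14 receptors, FZD8 (0.81) the largest (3 rises without siCtrl library 3). Among inhibitors KREMEN1 fell (31.4 to 11.6 CPM, -1.44), and the nuclear factor TCF7 fell (40.5 to 15.2 CPM, -1.42). β-Catenin (CTNNB1) was at -0.12 without passing. In the Notch pathway 10 of 29 genes rose and 5 fell (7 and 3 without siKMT9α#1 library 3). The ligand JAG1 was counted at 499, 519 and 494 CPM with siCtrl and 1089.9, 1045 and 1117 CPM with siKMT9α#1 (1.10), and the feedback genes NRARP (1.34) and HEY1 (1.08) rose as well. RBPJ, the DNA-binding partner of Notch, carries 2 copies of ACATTCA and fell from 40.3 to 11.6 CPM (-1.81), and NOTCH3 fell (-0.85) while NOTCH1 rose (0.58).

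In the Hippo pathway 13 of 31 genes fell and 7 rose. YAP1, the coactivator that the pathway restrains, rose modestly (358 to 455 CPM, 0.34), its DNA-binding partner TEAD1 fell (-0.86) and TEAD4 rose (0.61). Of 13 YAP-TEAD targets 6 fell, with CCN1 and PTPN14 (-1.32) leading, and 2 rose. F3, tissue factor, was counted at 134, 143 and 119 CPM with siCtrl and 309, 334 and 349.6 CPM with siKMT9α#1 (1.33), and it holds the siCtrl heptamer. VGLL3, a TEAD cofactor with ACATTCA, fell from 112 to 35.2 CPM (-1.66). In insulin-like growth factor, PI3K and mTOR signaling 14 of 42 genes rose and 9 fell. PIK3CA, the catalytic subunit p110α of PI3K, was counted at 13.0, 13.1 and 12.7 CPM with siCtrl and 38.0, 32.6 and 35.2 CPM with siKMT9α#1 (1.45), overlaps KCNMB3 (0.69) and holds the siCtrl heptamer. PIK3C2A, a class II PI3K with 3 copies of ACATTCA, fell from 119.6 to 29.1 CPM (-2.04). The mTOR complex subunits MLST8 (23.4 to 50.4 CPM, 1.11) and RPTOR (43.5 to 87.8 CPM, 1.01) rose, and RICTOR, of the other mTOR complex, fell (-0.64) and holds ACATTCA. Of the binding proteins, IGFBP6 (-0.94) and IGFBP7 (-0.87) fell along with IGFBP5, and IGFBP3 (0.47) rose. IGFBP5 and IGFBP3 hold ACATTCA and moved in opposite directions.

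Immune signals and their receptors fell more often than they rose, at 16 and 6 of 34 tested genes. The falls were 6 of 11 chemokines, 5 of 10 interleukins (3 without siCtrl library 1), 1 of 4 colony-stimulating factors and 4 of 9 receptors. CCL2, a chemokine for monocytes, was at 1.32, 1.73 and 1.77 CPM with siCtrl and at or under 0.0375 CPM with siKMT9α#1, which is 1 count per library at most, so no fold is given. IL11, a cytokine of the interleukin-6 family, was counted at 35.5, 34.997 and 33.8 CPM with siCtrl and 9.22, 9.12 and 9.65 CPM with siKMT9α#1 (-1.90). CSF3, which drives granulocyte production, was counted at 175, 157 and 176 CPM with siCtrl and 436, 459.5 and 443 CPM with siKMT9α#1 (1.40). These 2 cytokines moved in opposite directions. The receptor chains of interleukin-6 did so as well, since IL6R rose and IL6ST, the shared signaling chain gp130 with 3 copies of ACATTCA, was counted at 282, 276 and 265 CPM with siCtrl and 74.7, 74.3 and 78.2 CPM with siKMT9α#1 (-1.86). CCL20 (1.21), a chemokine of epithelia, rose, and CSF1 (-1.15) and IL1RAP (-1.67) fell. For NF-κB, 3 of 28 genes fell and 7 rose, with the subunit NFKB1 from 114 to 75.6 CPM (-0.59), and RELA at 0.019 without passing.

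Of 49 interferon-stimulated genes and sensors 13 fell and 6 rose, with 8 falls without siCtrl library 1 or without siKMT9α#1 library 2 or 3, and the 4 interferon genes listed had too few counts to be tested. Among the targets, IFITM3, which blocks viral entry, was counted at 92.7, 99.7 and 104 CPM with siCtrl and 51.1, 51.4 and 53.7 CPM with siKMT9α#1 (-0.93), with IFITM1 (-1.08) and MX2 (-0.86) alongside, while ISG15 (-0.16) and IFIT3 (-0.27) did not pass. Among the sensors TMEM173, which encodes STING, rose from 4.24 to 14.1 CPM (1.73), and EIF2AK2, the kinase PKR, fell (-0.55). In antigen presentation 9 of 29 genes fell and 5 rose. The peptide-trimming enzymes ERAP1 (204 to 108 CPM, -0.92) and ERAP2 (74.7 to 31.4 CPM, -1.25) fell, and both hold ACATTCA. CD274, the checkpoint ligand PD-L1, was counted at 54.0, 57.3 and 48.9 CPM with siCtrl and 20.8, 20.9 and 20.3 CPM with siKMT9α#1 (-1.37). HLA-B fell (-0.74) and HLA-E rose (0.63), with the caution that HLA genes share near-identical sequence and are variable between people, so their reads can be misassigned. The stress ligands of natural killer cells MICA (0.74) and MICB (0.60) rose.

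Targets of ATF4 had the highest share of rises among the lists plotted. ATF4 is the transcription factor of the integrated stress response, which adapts amino acid supply when translation initiation slows. Of 26 ATF4 targets and amino acid synthesis genes 16 rose and 1 fell (median 0.44), a share of 61.5% up. Without the genes that hold either guide heptamer, the median was 0.47 over 25 genes. ATF4 itself was counted at 403, 437 and 412 CPM with siCtrl and 601, 605 and 625 CPM with siKMT9α#1 (0.55). DDIT3, the factor CHOP, was counted at 12.1, 12.7 and 12.9 CPM with siCtrl and 36.9, 36.03 and 36.04 CPM with siKMT9α#1 (1.53), and it overlaps MARS (0.25) and MBD6 (0.57) on the opposite strand. STC2, a secreted glycoprotein, was counted at 167, 199.97 and 162 CPM with siCtrl and 576, 621 and 668 CPM with siKMT9α#1 (1.82). DDIT4, an inhibitor of mTOR complex 1, was counted at 78.8, 92.2 and 80.8 CPM with siCtrl and 214, 232 and 227 CPM with siKMT9α#1 (1.42). All 4 were higher in each siKMT9α#1 library than in any siCtrl library, a separation of the groups that every DEG showed. The amino acid transporters SLC3A2 (0.56), SLC38A2 (0.51), SLC7A5 (0.51) and SLC1A5 (0.47) rose, but SLC7A11 (-0.06) did not pass. Among the enzymes MTHFD2 (0.54), PYCR1 (0.56), PSAT1 (0.34) and PSPH (0.39) rose, asparagine synthetase ASNS (-0.027) did not pass and PHGDH, the entry to serine synthesis, fell (391 to 286 CPM, -0.45). With counts summed over transcripts PYCR1, PSAT1 and PSPH lost their calls, which left 1 rise and 1 fall among the enzymes. The motif TGATGNAA, bound by ATF4 with its partners, stood on either strand of 1.67% of all promoters and 1.69% of those of upregulated DEGs. In this list 5 of 22 promoters held it, of which ATF3 (0.83) and SLC3A2 rose, while 14 of all 22 genes rose. The median log2 fold change was 0.36 in the 5 genes with the motif and 0.51 in those of the list without it.

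In the unfolded protein response 12 of 24 genes rose and 5 fell, with 3 falls when siCtrl library 1 or 3 or siKMT9α#1 library 2 or 3 was left out. Its sensors parted: ERN1, the kinase IRE1, was counted at 9.57, 9.34 and 9.03 CPM with siCtrl and 27.1, 24.4 and 25.6 CPM with siKMT9α#1 (1.47), and EIF2AK3, the kinase PERK, at 27.2, 25.7 and 23.8 CPM with siCtrl and 11.2, 11.1 and 11.8 CPM with siKMT9α#1 (-1.17), while ATF6 (-0.14) did not pass. The chaperone HSPA5 (BiP) rose from 1064 to 1332 CPM (0.32). Calnexin (CANX), which holds 2 copies of ACATTCA, was counted at 1111, 1156 and 1082 CPM with siCtrl and 475, 482 and 484 CPM with siKMT9α#1 (-1.22), and its soluble relative CALR rose (0.39). SEL1L (1.22), of the degradation machinery, and DNAJC3 (0.98) rose. SEL1L holds both guide heptamers. Of 16 cytosolic heat shock genes 5 rose and 1 fell, DNAJA1 (0.67), with the siCtrl heptamer, and HSP90AB1 (0.57) leading, and HSF1, their factor, was at 0.12 without passing.

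Among snoRNA host genes every call was a rise. These genes release small nucleolar RNAs from their introns, and their spliced RNA is usually short-lived because ribosomes that scan it mark it for nonsense-mediated decay. Of 19 hosts tested 13 rose, 10 at least 2-fold, and none fell, with a median of 1.10 (6 others did not pass, and -0.85 for SNHG9 was the lowest). GAS5 was counted at 238, 264 and 250.4 CPM with siCtrl and 575, 603 and 607 CPM with siKMT9α#1 (1.25). SNHG1 was counted at 62.3, 62.3 and 57.2 CPM with siCtrl and 214, 225 and 219 CPM with siKMT9α#1 (1.86), and SNHG15 at 16.7, 18.3 and 18.3 CPM with siCtrl and 65.3, 68.4 and 67.8 CPM with siKMT9α#1 (1.92). ZFAS1 rose from 139.6 to 467 CPM (1.74) and shares 249 bases with ZNFX1 (0.32) on the opposite strand. In these hosts the replicates were tight and the groups far apart. By contrast, none of 9 microRNA hosts passed, and of the nuclear RNAs NEAT1 rose (77.0 to 159.7 CPM, 1.05) and MALAT1 (0.27) did not pass.

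Changes of ribosome genes were small. Of 85 cytosolic ribosomal protein genes 35 rose and 4 fell, none at least 2-fold, with a median of 0.17. RPL4, which also hosts snoRNAs, rose most, at 1286, 1320.1 and 1362 CPM with siCtrl and 2419, 2389.9 and 2389.6 CPM with siKMT9α#1 (0.86). Pseudogene copies share sequence with many of these genes, so single values are uncertain. Mitochondrial ribosomal proteins did not share this, with 8 rises and 6 falls of 78 (median 0.02), or 5 and 6 with scaling by total counts. In translation 17 of 49 factors rose and 6 fell. EIF4A2, a helicase of initiation that also hosts snoRNAs, was counted at 197, 196 and 194 CPM with siCtrl and 419, 422 and 420.1 CPM with siKMT9α#1 (1.10). PABPC1, the cytoplasmic poly(A)-binding protein, was counted at 823, 850.3 and 853 CPM with siCtrl and 1742, 1722 and 1682 CPM with siKMT9α#1 (1.03). EIF4H, which assists the same helicase and holds ACATTCA, was counted at 505, 513 and 516 CPM with siCtrl and 152, 154 and 149 CPM with siKMT9α#1 (-1.75). EIF3A, the largest subunit of the initiation factor eIF3, with ACATTCA as well, fell from 307 to 148 CPM (-1.05). Cytosolic aminoacyl-tRNA synthetases were close to background, at 4 up and 2 down of 20.

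Lipid metabolism showed large changes of single enzymes in both directions. Of 27 genes of cholesterol synthesis and uptake 9 rose and 9 fell. INSIG1, which holds back sterol-responsive transcription, was counted at 119.6, 112 and 120.4 CPM with siCtrl and 41.3, 38.5 and 39.98 CPM with siKMT9α#1 (-1.55), and it holds ACATTCA, as do the fallers SC5D (-1.16) and STARD4 (-1.46). In fatty acid synthesis ELOVL5, which elongates polyunsaturated fatty acids, was counted at 128, 128 and 127 CPM with siCtrl and 27.2, 25.3 and 24.2 CPM with siKMT9α#1 (-2.32), and ELOVL6, which elongates saturated ones, at 13.2, 14.1 and 14.5 CPM with siCtrl and 34.96, 33.3 and 35.8 CPM with siKMT9α#1 (1.31). ELOVL5 and the desaturase-related FADS3 (-1.64) hold ACATTCA, FADS1 (-0.44) and FADS2 (-0.60) fell without it, and FASN rose (0.32). Fatty acid oxidation had 8 falls and 3 rises of 18, 4 of the falls with ACATTCA, and 6 and 1 without siKMT9α#1 library 3. The mitochondrial carnitine enzymes CPT2 (-0.90) and CPT1A (-0.62) fell without it, and ACADM, the medium-chain dehydrogenase, fell with it (58.2 to 29.7 CPM, -0.97). Export genes regulated by LXR moved both ways (3 up, 2 down of 8), with ABCA1 (0.60) up and APOE (-1.20) down.

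In the tricarboxylic acid cycle 7 of 25 genes rose and 5 fell (4 and 5 when counts were summed over transcripts). Citrate synthase (CS), the entry enzyme, was counted at 206, 199 and 214 CPM with siCtrl and 351, 344 and 334 CPM with siKMT9α#1 (0.73), and PC (0.63) rose as well. DLD, a shared subunit of the dehydrogenase complexes, fell from 109 to 47.8 CPM (-1.19), and so did SUCLG2 (-1.18) and SDHC (-1.05), all 3 with ACATTCA, as 4 of the 5 falls were. Respiratory chain genes were near or below background, with 4 up and 4 down of 38 complex I genes (3 and 2 without siKMT9α#1 library 3), 1 and 2 of 20 for complexes III and IV, and 0 and 3 of 15 for ATP synthase. Glycolysis gave 5 rises and 4 falls of 22, and 5 and 6 when libraries were scaled by total counts. Hexokinase 2 (HK2) was counted at 51.7, 54.8 and 53.9 CPM with siCtrl and 119.9, 115 and 117 CPM with siKMT9α#1 (1.13), the glucose transporter SLC2A1 rose (0.78) and holds ACATTCA, and the lactate carrier SLC16A1 fell from 219 to 106 CPM (-1.04), with ACATTCA. Of 22 hypoxia genes 6 fell and 3 rose. VEGFA, the angiogenic growth factor, rose from 44.03 to 91.9 CPM (1.06), and CA9, a carbonic anhydrase induced by hypoxia, fell from 2.22 to 0.285 CPM (-2.95). Nucleotide synthesis was quiet, at 3 up and 3 down of 24 (2 and 5 with scaling by total counts).

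Lysosome and autophagy genes fell more often than they rose (27 and 7 of 69), and 6 of the falls held ACATTCA. The rises were fewer without siCtrl library 2 or 3 (4 each), without siKMT9α#1 library 3 (3), and with scaling by total counts or upper quartile (2 each). Among 35 genes listed as hydrolases 18 fell. ASAH1, the acid ceramidase, was counted at 59.99, 57.1 and 60.3 CPM with siCtrl and 12.3, 14.1 and 12.6 CPM with siKMT9α#1 (-2.19), and it is an ACATTCA gene. CTSF, a cathepsin without the heptamer, was counted at 38.6, 40.8 and 39.9 CPM with siCtrl and 12.8, 11.6 and 13.0 CPM with siKMT9α#1 (-1.67). SCARB2, a lysosomal membrane protein, fell from 91.8 to 26.9 CPM (-1.77). The cathepsin CTSD (0.27) rose, and so did PSAP (0.20), which encodes a cofactor precursor and not a hydrolase. Both calls were lost with counts summed over transcripts, and PSAP lost its call in 4 of the 6 fits without 1 library. Autophagy genes gave 6 falls of 24, with MAP1LC3B, which carries 2 copies of ACATTCA, from 43.6 to 24.9 CPM (-0.81). Antioxidant genes of NRF2 rose more often than they fell (11 and 2 of 31). HMOX1, heme oxygenase, went from 11.3 to 18.4 CPM (0.71), and the iron genes TFRC (404 to 701 CPM, 0.80) and FTH1 (2336 to 3844 CPM, 0.72), the transferrin receptor and ferritin heavy chain, rose. NQO1 (-0.04) and NFE2L2 (0.087), which encodes NRF2, did not pass. Metallothioneins, zinc-binding proteins, had 2 falls of 7 tested, MT2A among them (425 to 279.6 CPM, -0.61). The zinc importer SLC39A11, with 2 copies of ACATTCA, was counted at 24.8, 23.4 and 26.1 CPM with siCtrl and 3.75, 4.36 and 2.92 CPM with siKMT9α#1 (-2.76), the largest fall among 223 solute carriers, of which 49 rose and 37 fell.

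In the cell cycle, cyclins, CDKs and their regulators rose more often than they fell (15 and 3 of 35). Mitotic genes gave 6 rises of 8 and no fall, with the phosphatase CDC25B at 126, 136 and 136 CPM with siCtrl and 221, 216 and 222 CPM with siKMT9α#1 (0.73) and cyclin F (CCNF) from 41.1 to 67.1 CPM (0.71). The inhibitors CDKN1A (p21, 198 to 309 CPM, 0.64) and CDKN1B (p27, 60.1 to 94.3 CPM, 0.65) rose too. E2F3 was counted at 547, 519 and 520.3 CPM with siCtrl and 1027, 1003 and 1032 CPM with siKMT9α#1 (0.95), and E2F5, with ACATTCA, fell from 19.0 to 6.28 CPM (-1.59), while E2F1 fell slightly (-0.28). DNA replication genes fell more often, 13 against 9 of 44 (14 and 5 with scaling by total counts). MCM6, a subunit of the replicative helicase with ACATTCA, was counted at 122.9, 117 and 122 CPM with siCtrl and 41.8, 37.4 and 38.0 CPM with siKMT9α#1 (-1.63). Of its partners MCM3 (-0.36), MCM5 (-0.41) and MCM7 (-0.21) fell by less, and MCM2 (-0.075) and MCM4 (-0.096) did not pass. In recombination and Fanconi repair 7 of 37 genes rose (18.9%) and 5 fell (13.5%), near or below the shares over all genes. The counts were 4 and 5 with scaling by total counts, or without siKMT9α#1 library 3, and 4 and 4 without siCtrl library 3. BRCA1 (-0.66) and its partner BARD1 (-0.66) were among the falls. Centromere and kinetochore genes gave 11 rises and 5 falls of 39, kinesins 14 and 4 of 35, tubulins 1 and 6 of 23 (2 and 5 without siCtrl library 3), and septins, filament proteins of cytokinesis, 0 and 4 of 10.

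Cyclin G1 (CCNG1) fell from 191 to 94.9 CPM (-1.01), and the stress-protective SESN1, with ACATTCA, from 14.0 to 7.93 CPM (-0.81), while CDKN1A and the nuclease AEN (0.70) rose. Among survival and death genes 12 of 36 rose and 8 fell. Of 5 pro-survival BCL2 proteins 4 rose, MCL1 (347 to 469 CPM, 0.43) and BCL2L2 (1.05), BCL2A1 (0.80) and BCL2L1 (0.34). BCL2L2 shares 4919 bases with BCL2L2-PABPN1 (0.0088) on the same strand, and overlaps PPP1R3E (0.085) and HOMEZ (-0.37) on the opposite strand. The executioner caspase CASP6 (23.2 to 11.4 CPM, -1.03) fell, and the death receptor TNFRSF10A rose (0.83).

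Among chromatin regulators other than KMT9, 21 of 56 histone and DNA methylation enzymes rose and 8 fell, or 12 and 8 with scaling by total counts, 12 and 4 with counts summed over transcripts. KMT5A, which also monomethylates histone H4, at another lysine than KMT9, was counted at 57.9, 57.9 and 58.5 CPM with siCtrl and 116, 121 and 121 CPM with siKMT9α#1 (1.04). KMT2D, which methylates histone H3 at enhancers, was counted at 119, 128 and 117 CPM with siCtrl and 258, 226 and 241 CPM with siKMT9α#1 (0.99), and of 9 enzymes that methylate H3 at this lysine 5 rose and none fell. UHRF1, which guides maintenance DNA methylation and holds ACATTCA, was counted at 168, 167 and 177 CPM with siCtrl and 76.3, 76.4 and 76.0 CPM with siKMT9α#1 (-1.16). KDM6A, which removes the mark written by Polycomb, fell (83.8 to 49.6 CPM, -0.76), and KDM7A (0.68) rose. In SWI/SNF 3 rose and 2 fell of 19 (1 each without siKMT9α#1 library 3, and 2 and 1 without library 2), and of 18 genes of the PRC1 Polycomb complex 3 rose and 6 fell, with PCGF5 at 49.1, 46.3 and 48.0 CPM with siCtrl and 8.84, 9.89 and 8.80 CPM with siKMT9α#1 (-2.38) against BMI1 (PCGF4), which rose (0.56) and holds the siCtrl heptamer. BMI1 shares 8444 bases with COMMD3-BMI1 (0.28) on the same strand. Replication-dependent histone genes did not pass in any of 17 cases, and their messages lack poly(A) tails.

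Immediate early factors were divided (6 up and 7 down of 22). EGR1, a zinc finger factor of growth factor signaling, was counted at 299, 394 and 242 CPM with siCtrl and 71.0, 72.6 and 95.5 CPM with siKMT9α#1 (-1.96). FOSL1, a late AP-1 subunit, was counted at 159, 160.5 and 163 CPM with siCtrl and 345, 364 and 357 CPM with siKMT9α#1 (1.15). FOS, the classical AP-1 subunit, was counted at 15.6, 24.3 and 10.8 CPM with siCtrl and 4.27, 4.84 and 8.83 CPM with siKMT9α#1 (-1.47), with its nearest libraries 10.8 and 8.83 CPM, and JUN (-0.76) fell as well, while KLF4 (1.09) and MYC (0.56) rose. Among genes of microRNA silencing, through which an siRNA acts, TNRC6A (60.1 to 120.3 CPM, 1.002) and TNRC6C (11.4 to 23.1 CPM, 1.02) rose, and TNRC6B (-0.46) and AGO1 (-0.64), both with 2 copies of ACATTCA, fell. TNRC6C and AGO1 hold the siCtrl heptamer as well, AGO1 thus both. AGO2, the slicer, averaged 41.5 CPM with siCtrl and 49.9 CPM with siKMT9α#1 (0.27) without passing.

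Gene families not built around a pathway were set against the shares over all genes, 18.0% up and 17.6% down. These shares varied with abundance, as given above, and the families were not matched for it. ZNF zinc finger genes, mostly repressors, were rarely upregulated, with 32 of 463 up (6.91%) and 70 down (15.1%). Of the 446 with a known 3′ UTR, 22.4% held ACATTCA, against 15.4% over all genes. TRIM ubiquitin ligases had 2 up and 13 down of 42, 8 of the falls at least 2-fold, with TRIM2, which carries 2 copies of ACATTCA, from 16.9 to 3.71 CPM (-2.20). Cytochrome P450 genes had 1 up and 7 down of 22. HOX genes, which set position along the body, leaned the other way, with 9 up and 1 down of 27. The rises lay in the HOXA (5 of 10 genes) and HOXB clusters (4 of 9) and not in HOXD (0 of 8), a contrast between clusters that was not tested. HOXB5, which overlaps HOXB-AS3, was counted at 2.88, 3.60 and 2.92 CPM with siCtrl and 8.02, 9.82 and 8.27 CPM with siKMT9α#1 (1.48). Mediator subunits had 6 up and none down of 30 (1 down without siCtrl library 2), and proteasome subunits 6 up and 1 down of 37. Semaphorins, plexins and neuropilins, guidance molecules also used by epithelia, had 11 falls and 6 rises of 31. Caveola genes had 4 falls and 2 rises of 10, and tetraspanins 8 (34.8%) and 3 of 23. RAB GTPases were near the shares over all genes, with 13 falls (24.1%) and 10 rises (18.5%) of 54.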

How the data were processed

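RNA was sequenced from 3 siCtrl and 3 siKMT9α#1 libraries of 5637 cells. The authors aligned reads to hg19 with STAR and deposited estimated counts per RefSeq transcript from HOMER at default settings, not normalized. The authors also deposited their own log2 fold changes and p-values from edgeR, which were not used. What the HOMER defaults set for strand is not spelled out in the sources used here, and overlaps with other genes are named for some genes and not for all. Of 37400 transcripts, the one with most counts was kept for each of 23064 symbols, and values were rounded to whole numbers (33.7% were not whole).

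Differences were tested with edgeR 4.0.16 in R 4.3.3 by its quasi-likelihood F test with TMM scaling after its expression filter, over these 6 libraries and without a covariate. A DEG had p below 1e-06, as in the study, and adjusted p-values are Benjamini-Hochberg over all 14335 genes. Standard errors were taken from the F statistic. The fit was tested on simulated counts. CPM used library totals scaled by TMM factors. Library totals ran from 27078216.5 to 35151256.5 counts, and the biological coefficient of variation was 3.34%.

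Heptamers complementary to bases 2 to 8 of each siRNA strand in the study's methods were counted in the longest 3′ UTR of at least 50 bases per symbol (GENCODE v44 on GRCh37, 18320 symbols). Promoters were from RefSeq (GRCh38.p14). Gene lists and families were described by counts and medians, without a set test, and the members and lists were chosen with earlier results of these data known. Named were N6AMT1 and TRMT112, the 12 largest rises and falls with a mean count of at least 50, per list up to 3 of each, per family 1 of each, and the members of roles given whole. Another 111 genes were named outside this rule, chosen after their values were seen, and some genes and a gene list are not reported here. Alternatives comprised other scalings, filters, tests (DESeq2 1.42.0), thresholds, counts per transcript, a replicate block and leaving out each library. Libraries with the same number did not deviate together (correlations 0.054, -0.013 and -0.0016). Library numbers are those of the sample titles, from which the sample descriptions depart for siKMT9α#1.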

Additional observations from a re-analysis of the deposited data

How the results depend on the processing

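The count of DEGs moved by over 1.5 times with the threshold and with the counting unit. It was 10138 (5029 up, 5109 down) at an adjusted p below 0.05, 1061 (272 up, 789 down) with at least a 2-fold change, 2216 (722 up, 1494 down) when tested by edgeR's glmTreat against a 1.5-fold change, and 9248 (4584 up, 4664 down) over every transcript. Other fits gave 3761 (counts summed over transcripts) to 6350 DEGs (no filter), and DESeq2 gave 5339. Without 1 library in turn, 4288 to 4974 genes were called, and N6AMT1 was at -2.47 to -2.08. Upregulated genes made up 50.6% of DEGs, 42.8% with scaling by total counts and 44.5% with upper quartile scaling, which shifted the median of all genes to -0.059 and -0.047. With the replicate block 5378 genes were called, N6AMT1 was at -2.23 and no named call changed, and the numbers are not known to mark shared cultures. For genes with the siKMT9α#1 heptamer the median was -0.37 with the shortest 3′ UTR per gene and -0.39 with 3′ UTRs of middle length, and for the siCtrl heptamer 0.45 and 0.43. Of 460 named DEGs, 54 were lost with summed counts, 14 with scaling by total counts, 2 with DESeq2 and up to 25 without 1 library, and none reversed. Among 69 lists and families, counts of 3 or more rises or falls moved by over 1.5 times in 24 with summed counts, in 8 each with scaling by total counts, no filter or the likelihood ratio test, in 4 with upper quartile scaling and in 9 without siKMT9α#1 library 3 (4 or fewer without any other library). The medians of some lists changed sign although they exceeded their spread over the siKMT9α#1 libraries. With scaling by total counts these were tricarboxylic acid cycle (-0.017), aminoacyl-tRNA synthetases (-0.023), BCL2 family and caspases (-0.037), desmosomes and tight junctions (-0.0092) and complex I (-0.0068), with upper quartile scaling tricarboxylic acid cycle (-0.0046), aminoacyl-tRNA synthetases (-0.011) and BCL2 family (-0.024), without siCtrl replicate 3 BCL2 family (-0.021, against up to 0.045 without siCtrl replicate 1), and among genes without the guide heptamer fatty acid oxidation (0.0010), Hippo pathway (0.084, but -0.0057 among genes with neither heptamer) and epithelial-mesenchymal transition (0.015). Of medians below that spread, cholesterol synthesis and uptake (0.092), solute carriers (0.066) and nucleotide synthesis (0.016) also changed sign among genes without the guide heptamer. The cause of these shifts was not tested. Genes of few counts are the limit of depth: in genes of up to 4.05 CPM 1.43% rose and 7.01% fell, nearly all at least 2-fold.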

Other observations

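Single symbols could hide transcripts that moved apart. Among 5619 symbols with several transcripts tested, 4 had 1 transcript called up and another called down. KIF1B, a kinesin that carries organelles along microtubules, had NM_015074 at 0.30 and the shorter NM_183416 at -0.64. INF2, a formin that assembles actin, had NM_022489 at -0.42 and NM_032714 at 0.90. TMPO, which encodes the nuclear lamina protein thymopoietin, had NM_003276 at -0.26 and NM_001032283 at 0.23. ASPH, an aspartyl hydroxylase of the endoplasmic reticulum, had 2 transcripts that fell, down to -0.57, and others that rose, up to 0.71. HOMER counts reads per transcript, and reads in shared exons add to each of them, so these values are not independent. The 4 genes were chosen after their values were seen.

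The direction of DEGs also varied by chromosome. On chromosome 20, 99 of 383 tested genes were upregulated (25.8%) and 55 downregulated (14.4%), and on chromosome 9 the shares were 25.1% and 15.01%. On the X chromosome 47 of 428 were upregulated (10.98%) and 86 downregulated (20.1%). Chromosome 1 lay at 18.1% and 17.9%, close to the shares over all genes. These shares are descriptions, and differences between chromosomes were not tested.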
